A study of Danio rerio with 8 samples.

Results

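Genes of the acute phase and prostaglandin response were followed in whole zebrafish embryos at 53 hours post fertilisation. They are ptgs2b, socs3a, cebpd, irg1l and saa, chosen by gene symbol, and all 5 have a row in the authors' deposited table of 1293 genes. The samples were 4 pools of wild-type embryos and 4 pools of iqgap1-/- embryos that showed hemorrhage, and nothing in the labels says that the wild-type pools had bled. Genotype and hemorrhage therefore cannot be told apart in any comparison given here. The design text gives pools of 20 embryos, whereas the extraction protocol in the labels speaks of single larvae, and the labels name neither the mutant allele nor the parents. The replicate pools are not said to come from separate clutches, so the p-values measure only the spread between these samples.

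The acute phase response is the early systemic reaction to injury, bleeding or infection, in which cytokines act through JAK and STAT proteins to switch on secreted plasma proteins. Prostaglandins are lipid signals made from arachidonic acid, and the inducible cyclooxygenase is the step that responds to damage. In the mammalian liver, C/EBP transcription factors cooperate with STAT3 at acute phase genes, and SOCS3 is the feedback inhibitor that ends the signal. Zebrafish embryos at this stage already have circulating neutrophils and tissue macrophages, while the liver is still forming.

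The deposited table holds only genes that the authors had selected as different between these groups, 4.81% of the 26889 genes they adjusted over. That each of the 5 genes differed to some degree is thus a condition of being in the table and not a result of it. The smallest absolute deposited log2 fold change in the table was 0.5856, and the largest adjusted p 0.04997. The deposited values of cebpd (0.60) and irg1l (0.63) lie just above that smallest size. Their sizes are thus in part a condition of being listed, which can bias them upward. The listed genes together held 354272 to 552331 expected counts per pool; the depth of whole libraries is unknown. Normalized counts given here are expected counts divided by a size factor per pool, with the scale between the groups set so that fold changes match the authors'. The iqgap1 transcript, the check of the labels, was lower in each mutant pool (902 to 1245 normalized counts) than in any wild-type pool (2114 to 2211).

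Of the 5 genes, ptgs2b had by far the largest difference, about 4.6-fold, and it alone passed the test. The others lay between about 1.5-fold and 2.9-fold above wild type on the mean, with adjusted p-values of 0.0676 to 0.0953 or, for saa, too few reads for the test. The edgeR quasi-likelihood test called 1 of the 4 genes tested as higher in the mutants at an adjusted p under 0.05. Of all 1126 listed genes tested, 37.5% were called higher and 29.3% lower, 66.8% in either direction. Of the 661 tested genes with higher values 422 were called, so the share among the 4 genes is below that of the table. All mutant pools lay above all wild-type pools for 3 of the 5 genes, and for 51.4% of the whole table, whose lower genes cannot meet this. In either direction the groups were apart for 89.5% of the table, so 3 of 5 is not above that share.

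The gene ptgs2b (ENSDARG00000010276) encodes a cyclooxygenase-2, one of a pair of zebrafish co-orthologs of the inducible mammalian enzyme that commits arachidonic acid to prostaglandins. Wild-type pools 1 to 4 had 57.7, 31.9, 30.5 and 50.7 normalized counts of it, and mutant pools 1 to 4 had 205, 222, 170 and 185. The lowest mutant pool exceeded the highest wild-type pool by 112 normalized counts, and the mutant pools were the more even ones. The mean rose from 42.7 ± 13.6 to 196 ± 22.5 (SD, n = 4 per genotype). This was a log2 fold change of 2.19 ± 0.21 (SE; 95% interval 1.73 to 2.66), called by the edgeR quasi-likelihood test (adjusted p = 2.97e-04). Among the genes in the authors' deposited table ptgs2b ranks 47 by p-value and 99 by the size of the rise.

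The gene socs3a (ENSDARG00000025428) encodes a suppressor of cytokine signalling, which binds cytokine receptors and JAK kinases and is itself a STAT3 target. Its normalized counts were 62.4, 35.9, 49.2 and 66.4 in wild-type pools 1 to 4 and 153, 127, 146 and 58.3 in mutant pools 1 to 4. Mutant pools 1 to 3 lay well above the wild-type range, whereas mutant pool 4 lay inside it. The means were 53.5 ± 13.8 and 121 ± 43.3 (SD, n = 4 per genotype). The log2 fold change was 1.17 ± 0.30 (SE; 95% interval 0.52 to 1.83). It did not pass the edgeR quasi-likelihood test (adjusted p = 0.0727). Without mutant pool 4 the log2 fold change was 1.41 and passed (adjusted p = 0.00825), in a fit that called 28.7% of the genes tested as higher, and leaving out any other pool gave values of 1.03 or more that did not pass.

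The gene cebpd (ENSDARG00000087303) encodes the transcription factor C/EBP delta, which in mammals is itself induced early in the acute phase response. Wild-type pools 1 to 4 had 529, 486, 594 and 617 normalized counts and mutant pools 1 to 4 had 1009, 841, 876 and 639. The groups did not overlap, but mutant pool 4 stood only 22.3 counts above wild-type pool 4. The means were 556 ± 60.0 and 841 ± 153 (SD, n = 4 per genotype). The log2 fold change was 0.60 ± 0.15 (SE; 95% interval 0.27 to 0.92). The edgeR quasi-likelihood test did not call it (adjusted p = 0.0676). As with socs3a, it passed when mutant pool 4 was left out (log2 fold change 0.71, adjusted p = 0.0215) and with no other pool left out.

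The gene irg1l (ENSDARG00000062788) is related to mammalian Irg1 (Acod1), the mitochondrial enzyme that makes itaconate in activated macrophages. In infected zebrafish larvae irg1l is known from macrophage-lineage cells. Its normalized counts were 243, 154, 245 and 176 in wild-type pools 1 to 4 and 353, 288, 340 and 282 in mutant pools 1 to 4. The groups did not overlap, with 36.7 counts between the lowest mutant and the highest wild-type pool, and here the wild-type pools were the more uneven ones. The means were 204 ± 46.7 and 316 ± 36.2 (SD, n = 4 per genotype). The log2 fold change was 0.63 ± 0.17 (SE; 95% interval 0.26 to 0.99; edgeR quasi-likelihood test, adjusted p = 0.0953). No pool left out brought the adjusted p under 0.05, the lowest being 0.0733.

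The gene saa (ENSDARG00000045999) encodes serum amyloid A, a secreted acute phase protein that binds lipoproteins and acts on neutrophils. It was the scarcest of the 5, with expected counts of 3, 2, 6 and 5 in wild-type pools 1 to 4 and 5, 14.13, 7.07 and 12 in mutant pools 1 to 4. The values that are not whole are estimates by the authors' counting tool, and saa was the only 1 of the 5 genes to have any. Its normalized counts ranged from 1.99 to 5.09 in wild type and from 4.88 to 14.7 in the mutants. Mutant pool 1 lay within the wild-type range, and the other mutant pools lay above it. The means were 3.62 ± 1.47 and 10.3 ± 4.33 (SD, n = 4 per genotype), a ratio of 2.85. The filter on low counts removed saa, and without that filter it was not called (log2 fold change 1.45, edgeR quasi-likelihood test, adjusted p = 0.166). An exact two-sided permutation test over the 8 pools gave p = 0.0571, where the smallest p possible is 0.0286. In the authors' deposited table saa ranks 1240 by p-value, with an adjusted p of 0.0385.

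**Figure D1:**
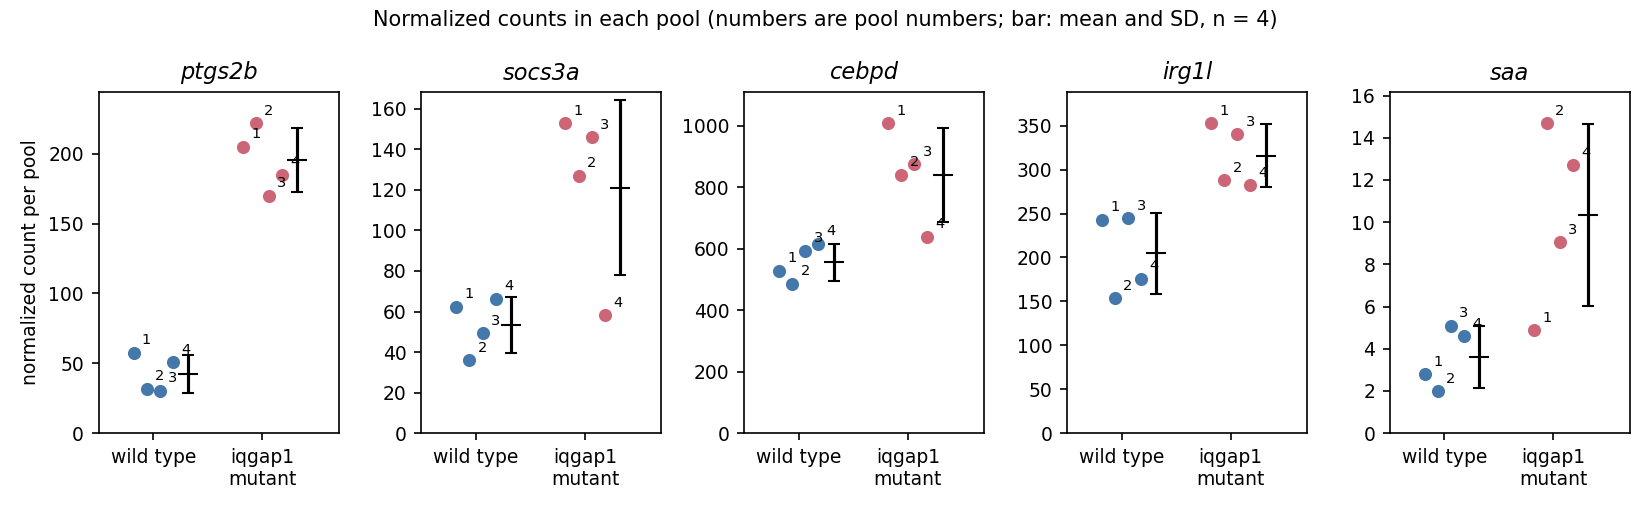
Normalized counts (vertical axis, linear, from 0) of the 5 genes in each wild-type (blue) and iqgap1 mutant (red) pool, with pool numbers beside the points and the mean and SD of each group as a bar (n = 4). The groups are apart for ptgs2b, cebpd and irg1l, while mutant pool 4 lies in the wild-type range for socs3a and mutant pool 1 does so for saa.

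How firmly the 4 smaller differences are held depends on the test and on the scale between the groups. In the authors' deposited table the adjusted p was 9.30e-21 for ptgs2b, 0.00579 for socs3a, 0.00319 for cebpd and 0.0129 for irg1l. DESeq2 called all 4 genes tested, with adjusted p-values of 0.0101 for socs3a, 0.0153 for cebpd and 0.0428 for irg1l, in a fit that called 44.4% of the listed genes as higher. The edgeR likelihood ratio test, tried after the data were seen, also called these 4, and 54.4% of the genes as higher. RLE size factors computed on the listed genes move the log2 scale between the groups by -0.515, and 10.1% of genes were then called higher. With them ptgs2b kept a log2 fold change of 1.69 and its call (adjusted p = 6.69e-04). The values were 0.67 for socs3a, 0.12 for irg1l and 0.09 for cebpd in that fit, and none of them passed. TMM scaling gave 0.80 for socs3a, 0.25 for irg1l and 0.22 for cebpd, none of them called either, in a fit that called 14.5% of genes higher. The log2 ratio of means of saa, 1.51 on the authors' scale, was 1.00 with RLE and 1.13 with TMM scaling, with no test. The sizes of the cebpd and irg1l differences therefore rest on the authors' scale, which cannot be checked with the listed genes alone, while ptgs2b was called under each scale tried. RLE and TMM scaling take most genes as unchanged, whereas every listed gene had been selected as different. Calls lost or gained under them, here and below, are to be read with that limit.

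**Figure D2:**
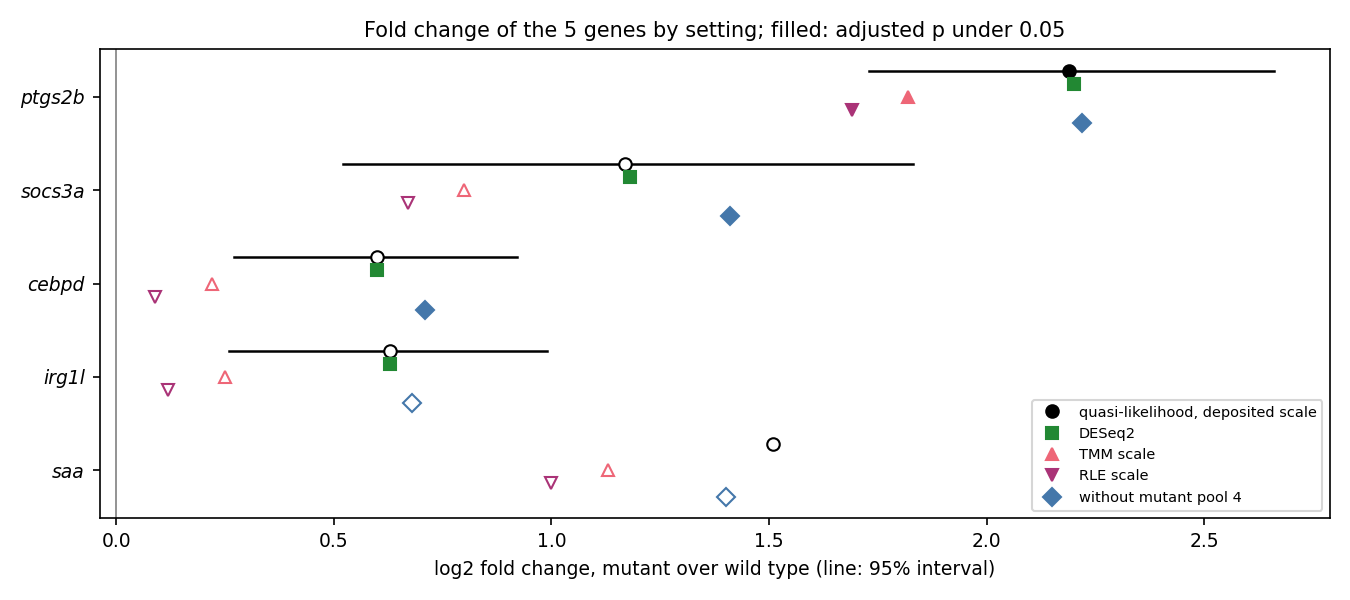
Log2 fold change, mutant over wild type (horizontal axis), of the 5 genes under 5 settings, with the 95% interval of the quasi-likelihood fit as a black line and filled symbols where the adjusted p was under 0.05. The values of ptgs2b are filled throughout and lie between 1.69 and 2.22, and those of cebpd and irg1l approach 0 under RLE scaling.

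Log2 ratios of genes within a pool were used to compare the genes with each other, as differences of log2(normalized count + 1). They depend little on the scale between pools, except at low counts such as those of saa, where the added 1 matters. Such a ratio also reflects transcript length, and only its difference between the groups is read here. The log2 ratio of cebpd to ptgs2b was 3.17 to 4.24 in wild-type pools and 1.78 to 2.36 in mutant pools, so ptgs2b gained on cebpd by 1.63 on the mean. The log2 ratio of irg1l to ptgs2b went from 1.78 to 2.96 in wild type to between 0.38 and 1.00 in the mutants. For socs3a the log2 ratio to ptgs2b was 0.11 to 0.67 in wild type and -1.65 to -0.22 in the mutants. These ranges did not overlap. The ratio of saa to ptgs2b did overlap, with log2 values of -3.95 to -2.37 in wild type and -5.13 to -3.76 in the mutants. The difference between the groups was thus greater for ptgs2b than for socs3a, cebpd and irg1l. A change of scale between the groups moves all genes nearly alike, so the scales tried do not test this order.

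Immune cell markers in the same pools moved in opposite directions, and in bulk RNA a change in the number of cells cannot be told apart from a change in RNA per cell. Of 20 neutrophil marker symbols, 8 had a row, and each of the 8 was called higher (median log2 fold change 0.91). In the same fit 422 of the 661 tested genes with higher values were called. The median over all genes tested was 0.70, but it mixes higher and lower genes. It is therefore no measure of whether a list with only higher values stands out. The summed level of the 8 neutrophil genes was 3109 to 3386 normalized counts in wild-type pools and 5564 to 7062 in mutant pools. The defining granule genes mpx, which encodes myeloperoxidase, and lyz, which encodes lysozyme, were among them. Of 27 macrophage and microglia symbols, 9 were in the table, all with lower values and 6 called lower (median -0.93). Their summed level was 20952 to 27650 in wild type and 13293 to 18851 in the mutants. The lipid carrier gene apoeb alone had 20274 to 27101 and 12996 to 18519, so the sum is in effect the level of this 1 gene. With RLE size factors edgeR called 0 of the 8 neutrophil genes (median 0.40), while all 9 macrophage genes were called lower. The 8 kept values above 0, but that was all but fixed in advance. Each listed log2 fold change was at least 0.5856 in size, more than RLE or TMM scaling moves it. Of the 8, 5 had an unadjusted p under 0.05, and TMM scaling called 3. These scalings move the log2 scale between the groups for every gene, by -0.515 (RLE) and -0.385 (TMM). They called 10.1% and 14.5% of all genes tested as higher, and the counts for both cell types are to be read with that shift. The shares of all genes called lower under them are not given here. On the authors' scale 29.3% of all genes tested were called lower, a share that counts the genes with higher values too. The part of either cell type in the values of the 5 genes was not tested.

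Set against the mean log2 level of the listed neutrophil genes in the same pool, ptgs2b was -3.21 to -2.45 in wild type and -1.68 to -1.30 in the mutants. It thus rose beyond the neutrophil genes in each mutant pool. The level of cebpd relative to the neutrophil genes was 0.73 to 1.05 in wild type and 0.32 to 0.68 in the mutants, so its difference between the groups was smaller than theirs. For socs3a (-2.94 to -2.14 and -3.12 to -1.90), irg1l (-0.88 to -0.25 and -0.92 to -0.68) and saa (-6.57 to -5.58 and -6.81 to -5.13), given as wild type and mutant, the groups overlapped on this log2 scale. Relative to the macrophage genes, irg1l was 0.37 to 1.00 in wild type and 2.21 to 2.57 in the mutants, so that irg1l and the macrophage markers moved apart. Only listed genes enter these means, and those had been selected for a difference.

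From pool to pool within a group, socs3a and cebpd were the pair among the 5 genes with the highest correlation. Deviations from the group mean on the log2(normalized count + 1) scale were compared over the 8 pools, as a description of points that share libraries and size factors. Those of socs3a and cebpd had a Pearson r of 0.89 and a Spearman rho of 0.79. The relation rests partly on the extreme pools, since r was 0.38 over the 6 pools left without the 2 farthest from the median of socs3a. Mutant pool 4 was the lowest mutant pool for both, at -0.95 for socs3a and -0.38 for cebpd. For ptgs2b the same pool lay at -0.07, and mutant pool 3 was the lowest, at -0.19. For irg1l mutant pools 4 and 2 were low, at -0.16 and -0.12. Of the 10 pairs computed, those of ptgs2b with the other 4 genes had r between 0.03 and 0.46.

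Immediate early genes, which respond within minutes to injury, stress or handling, and neutrophil genes both varied with cebpd and socs3a over the pools. Of 34 immediate early symbols 11 were in the table, all 11 with higher values and 9 called (median log2 fold change 1.15). Among all 661 tested genes with higher values 422 were called. With RLE size factors 1 of the 11 was called and with TMM 3, where 10.1% and 14.5% of all genes tested were called higher. All 11 stayed above 0, which was all but fixed in advance. These scalings move log2 fold changes by less than the smallest size listed. Deviations of their mean log2 level over the 8 pools had r = 0.91 (rho = 0.90) with cebpd, among 20 relations of a gene with a list computed, and r = 0.84 (rho = 0.83) with socs3a, and r was 0.72 and 0.60 without the 2 pools farthest from the median. The mean level of the listed neutrophil genes also varied with both, at r = 0.69 (rho = 0.74) for cebpd and r = 0.69 (rho = 0.71) for socs3a, and at 0.97 and 0.90 without the 2 farthest pools. For ptgs2b r was 0.24 with the immediate early genes and 0.45 with the neutrophil genes, and for irg1l these were 0.16 and 0.55. The labels do not say how the pools were handled, and a part of handling in these values was not tested. The deviations of ptgs2b ran opposite to those of the listed erythrocyte genes (r = -0.90, rho = -0.95, and r = -0.93 without the 2 farthest pools), although both were higher in the mutants. The erythrocyte mean log2 level spanned 8.99 to 9.46 over wild-type pools but only 10.49 to 10.57 over mutant pools. This relation thus rests mostly on the wild-type pools.

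**Figure D3:**
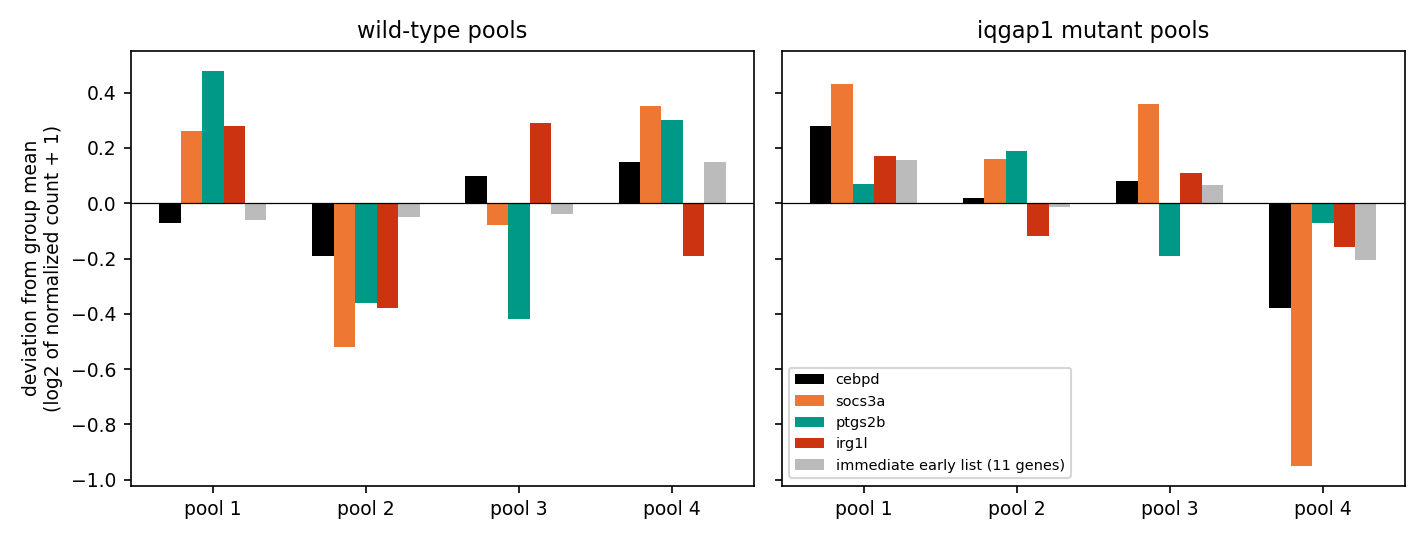
Deviation of each pool from its group mean (vertical axis, log2 of normalized count + 1) for cebpd, socs3a, ptgs2b and irg1l and for the mean of the 11 listed immediate early genes, in wild-type (left) and mutant pools (right). In mutant pool 4 socs3a lies at -0.95 and cebpd at -0.38, with the immediate early genes also below their mean, while ptgs2b lies at -0.07.

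The listed genes most like each of the 5 were taken from 435 named genes with a mean of 50 or more normalized counts, by the Pearson r of the same deviations over 8 pools. With so many candidates and so few pools high values are found for any gene, and they are given as a description. The closest to cebpd was junbb, a JunB family AP-1 transcription factor (r = 0.99), which had 207 to 291 normalized counts in wild type and 404 to 716 in the mutants. Next came f2rl1.2, a protease-activated receptor gene (r = 0.95), and slc30a1b, a zinc exporter gene (r = 0.94). For socs3a they were the cathepsin L gene ctslb (r = 0.93), the glucose-6-phosphatase gene g6pc3 (0.92) and again f2rl1.2 (0.91, but 0.30 without the 2 farthest pools). For ptgs2b they were the complement genes c3a.2 (r = 0.91) and c3a.3 (0.86), whose own values were lower in the mutants, and myha (0.89, with 0.97 over the wild-type and 0.10 over the mutant pools). The c3a genes are family members by name, and sharing of reads between them was not tested. For irg1l they were stard14 (r = 0.93), bscl2l (0.86) and the transglutaminase gene tgm1 (0.86). The closest to saa was rnf165a (r = 0.98), but at 2 to 14.13 expected counts nothing is read from it.

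Of 39 symbols of prostaglandin and leukotriene genes, 3 were in the table, which holds 4.81% of the genes the authors adjusted over. The 3 were ptgs2b, tbxas1 and ptgr1, all with higher values and 2 called (median log2 fold change 0.68), where 422 of all 661 tested genes with higher values were called. The thromboxane synthase gene tbxas1 had 101 ± 14.5 normalized counts in wild type and rose to 158 ± 10.2 (SD, n = 4 per genotype; log2 fold change 0.64 ± 0.13, edgeR quasi-likelihood test, adjusted p = 0.0263). That call was lost with RLE (log2 fold change 0.13) and TMM scaling (0.26). It was also lost when wild-type pool 2, 3 or 4 or mutant pool 2, 3 or 4 was left out (adjusted p up to 0.0873). The prostaglandin reductase gene ptgr1, whose product inactivates prostaglandins and leukotrienes, had 528, 413, 921 and 768 counts in wild-type pools 1 to 4 and 955 to 1188 in the mutants. It was not called (log2 fold change 0.68 ± 0.22, adjusted p = 0.246). The other 36 symbols, ptgs2a, ptgs1, the prostaglandin E synthases and the receptors among them, have no row under those names and were not analysed here.

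Plasma proteins of the acute phase moved both ways. Of 42 symbols 9 were in the table, 4 with higher and 5 with lower values. Of the 8 tested, 3 were called higher and 4 lower (median log2 fold change -0.65), where 37.5% of all genes tested were called higher and 29.3% lower. Both shares count genes of the other direction too: of 1126 genes tested 661 had higher values, and 330 were called lower. With RLE size factors 1 was called higher and 5 lower (median -1.16), and with TMM scaling 2 higher and 5 lower (median -1.03). These scalings move every log2 fold change, by -0.515 and -0.385. The shares of all genes called lower under them are not given here, so nothing is read from these counts. The C-reactive protein-like gene crp2 had the largest log2 fold change of these, from 2.83 ± 1.56 to 29.0 ± 11.5 normalized counts (3.33 ± 0.43, edgeR quasi-likelihood test, adjusted p = 0.00163). Its wild-type pools had only 0.848 to 4.66 normalized counts, as low as those of saa, and its mutant pools 22.3 to 46.2. It met the minimum count of 10 only through the mutant pools, so the size of its rise is uncertain. Its call, 1 of the 3 higher calls counted above, depends on that filter too, and no support is drawn from it. For leg1.1, which encodes a protein secreted by the liver, the level rose from 288 ± 16.3 to 614 ± 78.2 (1.09 ± 0.12, adjusted p = 6.36e-04), a call lost with RLE size factors (adjusted p = 0.0765). The complement gene c3a.3 fell from 1218 ± 326 to 441 ± 91.0 (SD, n = 4 per genotype), and the copper carrier gene cp fell by 0.67 on the log2 scale. The summed level of the 9 genes was 7739 to 9192 counts in wild type and 5418 to 5836 in the mutants. Of 26 hepatocyte symbols 4 were listed, 2 higher and 2 lower in value. The ceruloplasmin gene cp (log2 fold change -0.67) and the kininogen gene kng1 (-0.87, adjusted p = 0.00247) were called lower, and hpda, a gene of tyrosine breakdown, was called higher (0.96, adjusted p = 0.0106), a call lost with RLE and TMM scaling. Not called was the liver fatty acid binding protein gene fabp10a at 8.49 ± 4.32 and 20.3 ± 4.67 counts (adjusted p = 0.142). Other cell types of the whole embryo were unevenly represented. Of 27 erythrocyte symbols 23 were listed, all with higher values and 21 called. Of all genes tested 37.5% were called higher, which is 422 of the 661 with higher values. With RLE size factors 7 of the 23 were called and with TMM scaling 11, where 10.1% and 14.5% of all genes tested were called higher. All 23 stayed above 0, which the smallest size listed made all but certain under these scalings. Of 17 thrombocyte and endothelium symbols 2 were listed with 1 called higher (0 with RLE or TMM scaling), and of 28 keratinocyte and ionocyte symbols 0 had a row.

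On the cytokine side, 4 of 55 symbols of JAK-STAT signalling and its feedback were in the table, all with higher values and 3 called. Among all 661 tested genes with higher values 422 were called, so 3 of 4 does not set this list apart. The kinase gene pim2, of a family induced by STAT signalling in mammals, had 289 ± 12.1 normalized counts in wild type and rose to 880 ± 162 (SD, n = 4 per genotype; log2 fold change 1.60 ± 0.14, edgeR quasi-likelihood test, adjusted p = 2.05e-04). The transcription factor gene stat4 rose by 0.77 on the log2 scale (adjusted p = 0.0200) and the erythropoietin receptor gene epor, also an erythrocyte marker, by 1.85 (adjusted p = 0.0203). Mutant pool 1 had 40.0 normalized counts of epor, inside the wild-type range of 21.2 to 42.9. The other mutant pools had 119 to 137. With RLE and TMM scaling the log2 fold change of stat4 was 0.26 and 0.39 (adjusted p = 1.00 for each) and that of epor 1.31 and 1.44 (0.0922 and 0.0535), so both calls were lost. They were also lost when wild-type pool 3 or 4 or mutant pool 2, 3 or 4 was left out (adjusted p up to 0.0778). That of stat4 was also lost without wild-type pool 2 (0.0622), and that of epor without wild-type pool 1 (0.0638). Of 8 C/EBP family symbols, cebpb rose from 434 to 643 normalized counts in wild-type pools to 726 to 1136 in mutant pools (log2 fold change 0.95 ± 0.17, adjusted p = 0.0121) and cebpd was the other one listed. The rise of cebpb was not called with RLE (log2 fold change 0.45) or TMM scaling, nor without mutant pool 3 (adjusted p = 0.0505), and cebpb is also a neutrophil marker here.

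Of 46 symbols of NF-kB targets, cytokines and itaconate synthesis, 3 were in the table. Calls in this and the next list stand beside 422 called of all 661 tested genes with higher values. The matrix metalloproteinase gene mmp9, also a neutrophil marker, rose by 1.22 ± 0.17 on the log2 scale (SE; edgeR quasi-likelihood test, adjusted p = 0.00248), a call lost with RLE size factors. The chemokine gene cxcl20 had 50.4 ± 16.2 counts in wild type against 20.9 ± 7.17 in mutant pools (SD, n = 4 per genotype) and was not called (adjusted p = 0.0555). It was called lower with DESeq2 (adjusted p = 0.0121), with RLE (0.00833) and TMM scaling (0.0130) and without the count filter (0.0468). The replicate block (adjusted p = 0.0491) and the likelihood ratio test (0.00331) also called it lower. The remaining gene of the 3 was irg1l. The cytokine genes il1b, il6 and tnfa have no row and were not analysed here. Of 17 glucocorticoid target symbols 3 were listed, with tat, a tyrosine aminotransferase gene, and the cryptochrome gene cry5 called higher (log2 fold changes 1.12 and 0.77) and pdk2b not called (1.21, adjusted p = 0.0676). Both of those calls were lost with RLE and TMM scaling, and that of cry5 also without wild-type pool 4 (adjusted p = 0.0520) and, narrowly, without mutant pool 4.

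**Figure D4:**
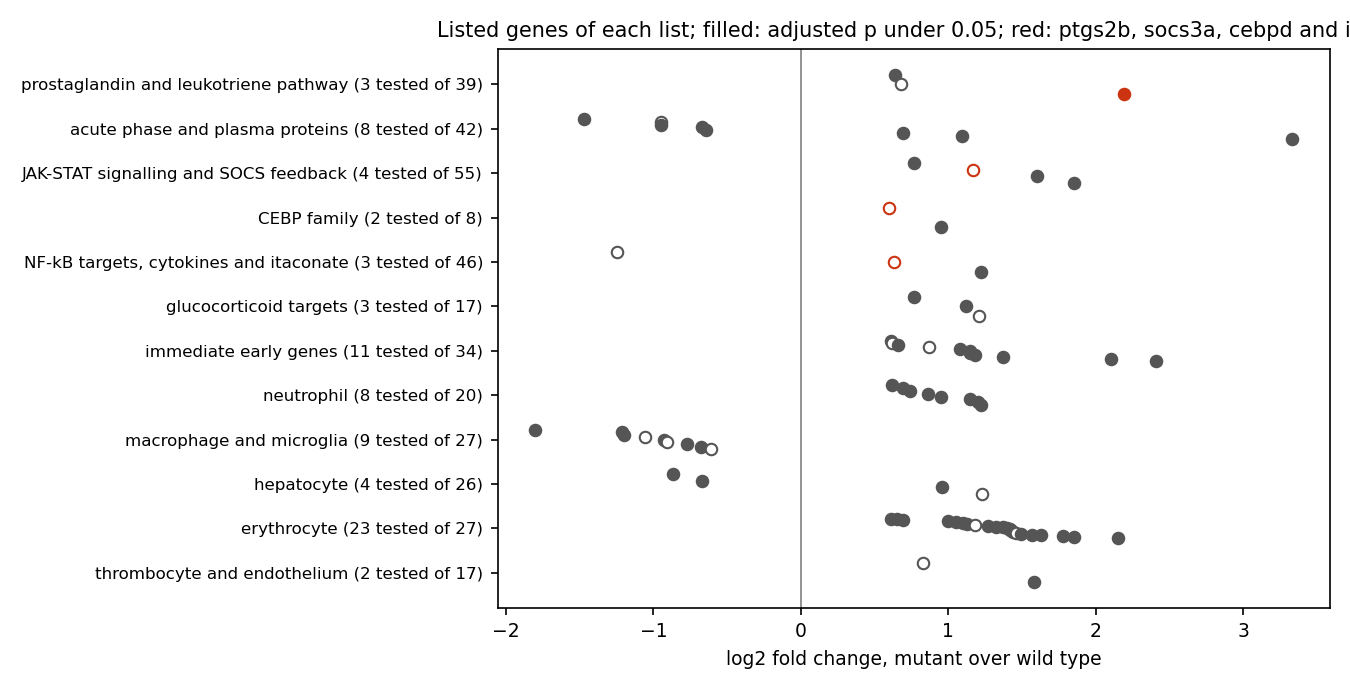
Log2 fold change, mutant over wild type (horizontal axis), of the tested listed genes of each gene list (rows), filled where the adjusted p was under 0.05, with ptgs2b, socs3a, cebpd and irg1l in red. Neutrophil, erythrocyte and immediate early genes lie to the right of 0, macrophage genes to the left, and acute phase plasma protein genes on both sides.

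The genomic surroundings of the 5 genes were looked at for listed neighbours, by gene order in the RefSeq annotation of GRCz12tu, which is not the build the submitters name. Among the 5 protein-coding genes on each side, ptgs2b had 1 listed neighbour, prg4b, and irg1l had 2, both with clone names. The neighbourhoods of saa, socs3a and cebpd held 0 listed genes out of 10 each, where 3.13% of all protein-coding genes in that annotation matched a listed symbol. Of the 5 genes saa is the one on the chromosome of iqgap1.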

How the data were processed

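Trimmomatic, STAR 2.7 and RSEM are listed, with the build danRer11 and no roles, in the submitters' processing notes. The annotation, strand setting and comparison tool were not given in the sources used here. Per the file headers, the deposited table gives the authors' log2 fold change, its linear fold (a ratio), p-values before and after adjustment, and 1 value per library. Those deposited values are RSEM expected counts multiplied by 1 of 8 factors (0.9784 to 1.0252) that cycle over the cells. Division by the factor made all 10152 nonzero values multiples of 0.01, the step at which expected counts are printed. Of the 40 values of the 5 genes, 38 were then whole within a tolerance of 1e-09.

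Expected counts were rounded and fitted over the whole table with edgeR 4.0.16 (R 4.3.3; filterByExpr with minimum count 10 and total 15, glmQLFit, glmQLFTest), which tested 1126 genes. Size factors came from medians of ratios within each group and 1 offset between groups (-0.231, log2) matched to the deposited fold changes; 95.7% of 648 genes with a mean of 50 or more then lay within 0.01. P-values were adjusted (Benjamini-Hochberg) over 26889 genes with unlisted genes at 1, which makes them upper limits for this fit. Standard errors are the fold change over the root of F. Permutation tests used SciPy 1.17.1. The steps were tested on simulated data.

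The 5 genes and all lists were chosen with earlier results of these data known. Named besides the 5 were list members in the table, with values for the 4 largest changes per list, and the 3 genes most like each member; other list genes named were picked after values were seen. Alternatives were DESeq2 1.42.0, limma 3.58.1, RLE and TMM scaling, no filter, a replicate block, each pool left out, other thresholds and adjustments. Pools of a group differed by more than counting noise (chi-square over degrees of freedom at least 2.52), so none was treated as a library deposited again; this does not show that pools are biologically independent. Gene IDs of all 5 matched the gene name table. No sequences were used here.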

Additional observations from a re-analysis of the deposited data

Results flagged for a closer look

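Within each group of 4 pools, Dixon's test asked whether the highest or lowest pool stood apart, for the 5 genes and the gene lists. It did in 2 of 34 cases, where chance marks about 1 in 20 groups. None of the 5 genes did so, mutant pool 4 for socs3a included. The mean log2 level of the 3 listed prostaglandin and leukotriene genes was 6.81 in wild-type pool 2, against 7.19 to 7.26 in the other wild-type pools; ptgr1, with 413 normalized counts there, was at its lowest in that pool. The mean log2 level of the 11 listed immediate early genes was 6.60 in wild-type pool 4, against 6.39 to 6.41 in the others, and fosab was highest there, at 96.8 normalized counts against 40.0 to 66.4.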

How the results depend on the processing

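The direction of each of the 5 genes was the same under every alternative run. Under RLE and TMM it could hardly change, since each listed log2 fold change was at least 0.5856 in size, more than these scalings move it. For saa the alternatives were only pools left out, RLE and TMM scaling, and no filter. Against 1 of the 5 called as reported, DESeq2 called 4, the likelihood ratio test (tried after the data were seen) 4, and adjustment over the tested genes of the table alone 4; that last adjustment calls all 1126 tested genes and separates nothing. The values were unchanged or nearly so: 1.18 for socs3a with DESeq2 and the likelihood ratio test and 1.17 with the table alone, 0.60 for cebpd and 0.63 for irg1l in all 3. Leaving out pools gave 2.06 to 2.37 for ptgs2b, 1.03 to 1.41 for socs3a, 0.50 to 0.71 for cebpd, 0.51 to 0.73 for irg1l and 1.29 to 1.75 for saa, with 1 to 3 of the 5 called. The 3 were reached without mutant pool 4. Of the 34 tested genes on the pathway lists, 25 were called as reported, in either direction. Of all genes tested, 66.8% were called in either direction, so the lists do not stand out by this count. The count was 10 with RLE size factors, 14 with TMM, 15 at an adjusted p under 0.01, and 20 to 25 with a pool left out. Of all genes tested, 37.5% were called higher as reported, 10.1% with RLE and 14.5% with TMM. The list counts include lower calls and are not to be set against these shares. Shares in either direction under RLE and TMM are not given here. RLE and TMM move the log2 scale between the groups for every gene, by -0.515 and -0.385, and 0.01 is a stricter threshold in the same fit. Other sources of these differences were not tested. Replicate numbers did not pair the pools: deviations of same-numbered pools correlated at -0.03, 0.09, -0.24 and -0.12, and 0 pools correlated best with their own number. With the number as a replicate block 2 of the 5 were called, irg1l being added (0.65, adjusted p = 0.0454), in a fit that called 27.9% of the genes tested as higher, and of 20 other named genes 4 lost and 1 gained a call. Low counts limit saa, and depth over all genes is unknown.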
